A study of Homo sapiens with 11 samples.

Results

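The 9 transcripts described here include those of 3 Notch receptors (NOTCH1, NOTCH2 and NOTCH3) and of the Notch ligand JAG1. The others are those of the target genes NRARP, HES1, HES4 and HEY1 and of the HES family member HES6. All 9 were chosen by name and were found among the 38021 genes of the count table. They were also among the 17793 genes kept by a filter on low counts. All libraries are from wild-type HEK293T, a cell line long established from human embryonic kidney, and every group was exposed for 6 h. The groups were vehicle (0.1% DMSO), thapsigargin (Tg) at 500 nM, the compound AA147 at 10 µM, and the compound AA132 at 0.1, 0.3, 1, 3, 6, 10, 15 and 30 µM. For each condition the labels list 1 sample while the table has columns numbered 1 to 3, and these 33 columns were treated as 3 libraries a condition. The labels do not say whether these are separate cultures, so p-values measure only the spread between the columns, which may be technical.

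Notch receptors are single-pass membrane proteins that carry long arrays of calcium-binding repeats and fold in the endoplasmic reticulum (ER). They are cleaved by furin in the Golgi and reach the surface as heterodimers. A ligand on a neighbouring cell, such as Jagged1 (JAG1) or a Delta-like protein, triggers cleavage by an ADAM protease and then by gamma-secretase. The released intracellular domain enters the nucleus, joins the DNA-binding protein RBPJ and a Mastermind (MAML) coactivator, and switches on target genes. The best known targets are the HES and HEY genes, which encode basic helix-loop-helix repressors, and NRARP, which encodes an ankyrin-repeat protein that dampens the signal. Tg blocks SERCA, the calcium pump of the ER, and SERCA inhibitors are known to impair the maturation of Notch receptors. The counts measure transcripts and hold no information on receptor cleavage or surface level.

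HES1 and HES4 were the HES genes called lower under Tg, HES4 in a call that is lost without vehicle library 1, without Tg library 1 or with only the groups compared in the fit. The 250 bases before the start of HES1 are therefore shown, with the 30 bases before HES4 that hold its motif matches, and the 250 bases before NRARP as a target gene for comparison. The sequences are from RefSeq (GRCh38.p14, 8 of the 9 members had an entry), read 5′ to 3′ on the strand of the gene. Capitals mark matches to TGGGAA, the core of the RBPJ motif, or to GTGNGAA, a longer form of it that overlaps the core where N is G. Both strands were searched, so TTCACAC is GTGTGAA on the other strand. The motifs were chosen after the sequences had been seen.
HES1 (chr3:194135898-194136147, plus strand): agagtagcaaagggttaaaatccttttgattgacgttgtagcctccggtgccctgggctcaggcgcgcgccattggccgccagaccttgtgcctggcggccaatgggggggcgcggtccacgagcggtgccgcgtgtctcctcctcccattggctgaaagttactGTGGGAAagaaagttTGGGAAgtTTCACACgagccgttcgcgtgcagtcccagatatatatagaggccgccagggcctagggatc
HES4 (chr1:1000145-1000174, minus strand): GTGGGAAagaatgcggagccgggTTCACAC
NRARP (chr9:137302272-137302521, minus strand): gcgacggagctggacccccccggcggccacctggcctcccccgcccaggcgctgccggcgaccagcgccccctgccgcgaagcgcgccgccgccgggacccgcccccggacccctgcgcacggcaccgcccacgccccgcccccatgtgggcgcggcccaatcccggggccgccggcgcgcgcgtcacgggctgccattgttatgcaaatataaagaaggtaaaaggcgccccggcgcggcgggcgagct
HES1 and HES4 each hold a pair of GTGNGAA matches that face each other with 16 bases between them. The pair spans bases 85 to 56 before the start in HES1 and bases 77 to 48 before the start in HES4. The HES4 start used is that of RefSeq and of the canonical GENCODE v44 transcript (chromosome 1, 1000097). Another GENCODE transcript of HES4 starts at 1000172, and nearly all of the pair lies inside it. Of 35116 windows of this length, 30 (0.0854%) hold such a pair with at most 30 bases between the matches, while 11.6% hold at least 1 GTGNGAA and 20.8% at least 1 TGGGAA on either strand. No match to either motif lies in the windows of NOTCH1, NOTCH2, NOTCH3, JAG1, NRARP or HES6, which says only that these letters are not in those 250 bases. For NOTCH2 and HES6, both on the minus strand, the RefSeq window lies inside the GENCODE v44 gene. Those genes begin at 120100779 on chromosome 1 and 238240662 on chromosome 2.

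Library totals ran from 32265433 to 37958312 counts. The ER chaperone gene HSPA5, a marker of ER stress, had 960 ± 72.6 CPM (counts per 1000000 counts of a library) in vehicle, 11023 ± 276 CPM under Tg and 2636 ± 183 CPM at 30 µM AA132 (SD, n = 3). Of the markers for this cell line, KRT8, KRT18, VIM, NEFL and NEFM were above 37 CPM in every library and PAX2 was at 0.41 to 1.53 CPM. PTPRC, CD3E, PECAM1, ALB and CDH5, markers of other cell types, had at most 8 counts in any library, while the epithelial marker EPCAM was at 112 to 157 CPM. Vehicle library 1 stood apart. Over 11237 genes with at least 5 CPM, its log2 deviations from the other libraries of its condition had an SD of 0.41, against 0.12 to 0.26 in the 30 libraries of other conditions. Over 10412 of these genes, the deviations of that library followed transcript length (Pearson r = -0.60 across genes, which are not independent replicates) and GC content (0.61). It had 55.9% of the mean of the other vehicle libraries for NOTCH2, which has a transcript of 11425 bases. It had 162% for HES4, a transcript of 885 bases, and 185% for NRARP. Results against vehicle are therefore also given without this library where that changed a call, a sign or the size by over 1.5 times. Of the AA132 libraries, 0.1 µM library 2 (r = -0.49) and 30 µM library 3 (r = -0.48) also deviated with transcript length. HSPA5 was at 1660, 1028 and 1093 CPM at 1 µM and at 1921, 1969 and 1042 CPM at 3 µM, so 1 µM library 1 and 3 µM library 3 went against their dose labels for this marker. At 10 µM, library 1 had 1854 CPM of HSPA5 against 2687 and 2836 CPM in the others, and its counts differed from theirs by a chi-square of 36.1 and 33.7 per degree of freedom, against 6.5 between the others.

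Levels of different genes were compared in vehicle as CPM per kb of the canonical GENCODE v44 transcript. HES4 (chromosome 1, 998962 to 1000172, GRCh38), which encodes a repressor close to HES1, was highest at 68.5 ± 20.9 CPM per kb. HES1 (chromosome 3, 194136148 to 194138732) followed at 22.2 ± 3.41. NOTCH2 (chromosome 1, 119911553 to 120100779) was the most abundant receptor at 15.6 ± 4.66 CPM per kb, against 3.13 ± 0.20 for NOTCH1 (chromosome 9, 136494433 to 136546048) and 2.27 ± 0.26 for NOTCH3 (chromosome 19, 15159038 to 15200995). HEY1, on chromosome 8, was at 13.0 ± 0.80 and JAG1 (chromosome 20, 10637684 to 10673999) at 10.6 ± 1.36 CPM per kb. HES6 (chromosome 2, 238238267 to 238240662), which encodes a HES protein known to oppose HES1, was at 8.25 ± 2.48. NRARP (chromosome 9, 137299631 to 137302271) was lowest at 0.91 ± 0.40 CPM per kb (SD, n = 3 throughout). In this order NOTCH2 and HEY1 overlapped between libraries, as did JAG1 and HES6, and the other neighbours did not. Reads of NOTCH2 can be shared with the near-identical NOTCH2NL copies, whose row held 1.42% to 3.43% of the sum of both rows. Whether counting used strand is not given in the sources used here. Unnamed long non-coding RNAs lie opposite NOTCH1, NOTCH2, JAG1, NRARP and HES6 in GENCODE v44. If strand was not used, their reads could be counted for these members where exons overlap, which was not examined.

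**Figure D1:**
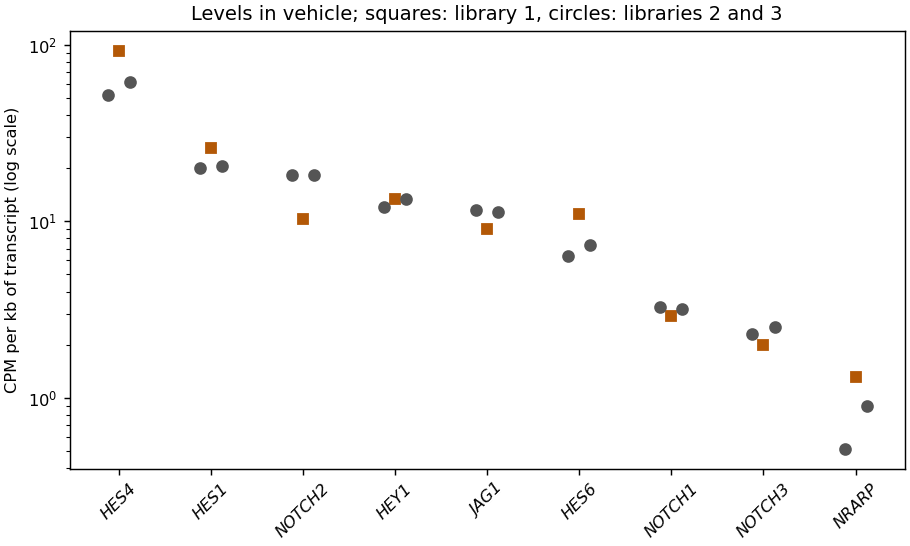
Levels of the 9 genes in the 3 vehicle libraries, as CPM per kb of transcript on a log axis, from the highest (HES4) to the lowest (NRARP). Squares mark library 1, which lies below the other libraries for NOTCH2 and above them for HES4, HES6 and NRARP.

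Tg was compared with vehicle to see how the Notch transcripts respond when the calcium store of the ER is emptied. Of the 9 genes, 3 were called (Benjamini-Hochberg adjusted p under 0.05, edgeR quasi-likelihood test), all lower: NOTCH3, HES1 and HES4. Over all genes tested 31.2% were called, 15% lower. The median log2 fold change of the 9 genes was -0.19, against 0.0048 over all genes tested. Without vehicle library 1 the called members were NOTCH2, NOTCH3 and HES1, again all lower.

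NOTCH3 had the largest change of the 9. Its level was 17.4, 19.9 and 21.8 CPM in the vehicle libraries and 11.1, 11.5 and 12.01 CPM in the Tg libraries. The groups did not overlap, and no library of the other 10 conditions came below 17.4 CPM. NOTCH3 fell by 0.77 on the log2 scale (SE 0.10, edgeR adjusted p = 2.44e-07), or 41.4%, and by 0.86 without vehicle library 1. It was called in all 38 alternative fits. NOTCH1, the founding member of the receptor family, was at 27.8, 31.4 and 30.6 CPM in vehicle and at 25.3, 28.6 and 28.1 CPM under Tg. These groups overlapped, and the difference did not pass the test (-0.13, 95% interval -0.36 to 0.099, adjusted p = 0.413). NOTCH2 was at 117, 209 and 210 CPM in vehicle and at 178, 179 and 172 CPM under Tg. With all libraries its log2 fold change was -0.018 (adjusted p = 0.933), and without vehicle library 1 it was -0.25 (adjusted p = 0.0165). JAG1 was at 53.8, 68.7 and 66.8 CPM in vehicle and at 68.0, 68.8 and 70.5 CPM under Tg, with overlapping groups and no call (0.13, 95% interval -0.032 to 0.29, adjusted p = 0.228). The JAG1 value was 0.022 without vehicle library 1.

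Of the HES and HEY genes and NRARP, HES1 was at 41.2, 31.4 and 32.4 CPM in vehicle and at 24.2, 24.3 and 25.5 CPM under Tg. Its 3 Tg libraries were the lowest of all 33, the next being a 30 µM AA132 library at 25.6 CPM. HES1 fell by 0.50 on the log2 scale (SE 0.089, edgeR adjusted p = 3.64e-05), or 29.4%, and by 0.37 (adjusted p = 0.000584) without vehicle library 1. HES1 too was called in all 38 alternative fits. HES4 was at 81.4, 46.0 and 54.3 CPM in vehicle and at 43.5, 49.5 and 44.03 CPM under Tg, with overlapping groups. It was called lower (-0.41, SE 0.13, adjusted p = 0.0155), but the value was -0.14 (adjusted p = 0.355) without vehicle library 1, and the call was also lost without Tg library 1 (adjusted p = 0.0523). NRARP, the feedback inhibitor, was at 3.46, 1.36 and 2.39 CPM in vehicle and at 1.55, 1.75 and 1.74 CPM under Tg. Its value of -0.51 did not pass (adjusted p = 0.0745). It was -0.16 without vehicle library 1 and -0.82, called (adjusted p = 0.00177), without vehicle library 2, so NRARP rested on single vehicle libraries. HEY1 was at 29.4, 26.4 and 29.5 CPM in vehicle and at 27.9, 31.8 and 26.3 CPM under Tg, a difference of 0.0091 (95% interval -0.22 to 0.24). HES6 was at 15.1, 8.71 and 10.0 CPM in vehicle and at 9.61, 11.4 and 8.80 CPM under Tg, with no call (-0.19, adjusted p = 0.403). Its sign turned without vehicle library 1 (0.076, adjusted p = 0.756).

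**Figure D2:**
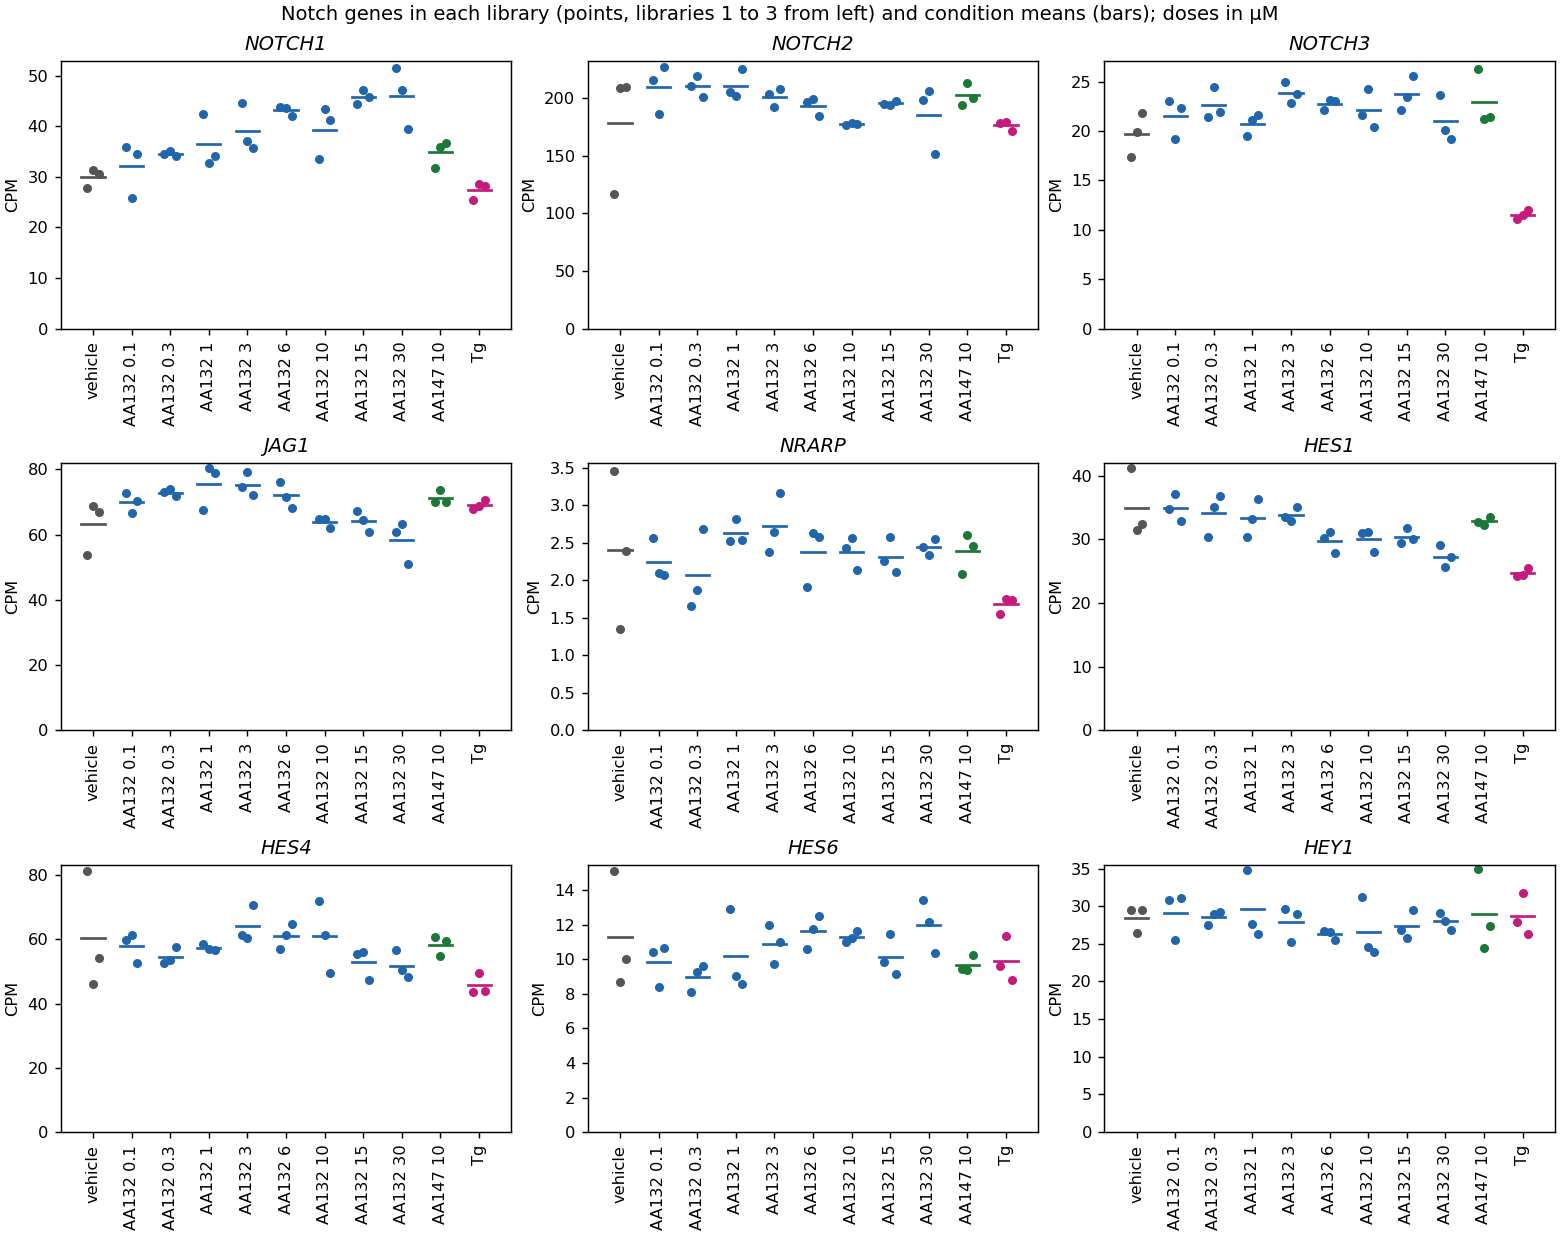
CPM of each gene in every library, with 3 points a condition (libraries 1 to 3 from left) and a bar at the mean. All panels start at 0. The NOTCH3 and HES1 points under Tg lie below those of every other condition, and NOTCH1 points rise along the AA132 doses.

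A list of 56 other Notch pathway genes was examined in the same fit, and 51 passed the filter. Under Tg 21 of these were called, 12 higher and 9 lower, with a median log2 fold change of 0.086, against 31.2% of all genes tested. With only the Tg and vehicle libraries in the fit 11 were called: ATP2A2, CHAC1, DLL4, DTX3, FURIN, HELT, ITCH, LFNG, TLE1, TLE3 and TLE4. Without vehicle library 1 there were also 21 calls, 10 higher and 11 lower, 16 of them shared. HELT, JAG2, MIB1, POGLUT1 and RBPJ were lost, and EOGT, MAML1, PSENEN, RFNG and SPEN were gained. CHAC1 encodes a glutathione-degrading enzyme that is also known to block furin cleavage of Notch. It rose most, from 5.41 ± 0.97 to 39.5 ± 3.86 CPM (log2 fold change 2.87, edgeR adjusted p = 2.08e-16). ATP2A2, which encodes SERCA2, the target of Tg, rose from 564 ± 46.7 to 1224 ± 23.9 CPM (1.12, adjusted p = 1.21e-14).

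The group listed under ER and Golgi modification had 8 tested genes. Of these, 2 were called higher (POGLUT1 and ATP2A2) and 2 lower (LFNG and FURIN). ATP2A2 was placed in this group but encodes a calcium pump and not a receptor-modifying enzyme. POGLUT1 (0.25, adjusted p = 0.0433) was not called in 18 of 33 fits with 1 library omitted, among them those without vehicle library 1 or 2 or Tg library 1 or 2. FURIN, the convertase that makes the first cut, fell from 206 ± 14.1 to 142 ± 1.46 CPM (-0.54, edgeR adjusted p = 2.14e-06). LFNG, which encodes the Lunatic Fringe glycosyltransferase, fell from 1.48 ± 0.37 to 0.61 ± 0.14 CPM (-1.27, adjusted p = 0.00107). Among the ligands, DLL4 rose from 1.44 ± 0.45 to 2.83 ± 0.60 CPM (0.97, adjusted p = 0.00554) and JAG2 fell by 0.34 (adjusted p = 0.00617), a call lost without vehicle library 1 (-0.21, adjusted p = 0.0986). The fourth receptor gene, NOTCH4, was called higher (0.48, adjusted p = 0.0206), opposite in sign to NOTCH3, but not without vehicle library 2 (adjusted p = 0.0678), vehicle library 3 (0.102) or Tg library 3 (0.144). Of 7 genes of receptor cleavage, ADAM17 and NCSTN (0.42 and 0.19) were called higher and PSEN2 lower (-0.24). ADAM17 was at 0.27 without vehicle library 1. The NCSTN call was lost without Tg library 3 (0.14, adjusted p = 0.0654).

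Of 8 tested genes of the nuclear complex, MAML3 was called lower (-0.55, edgeR adjusted p = 0.00198). RBPJ was called higher by 0.26 (adjusted p = 0.0483), but was not called in 28 of 33 fits with 1 library omitted (0.082, adjusted p = 0.503, without vehicle library 1). Without vehicle library 1, MAML1 and SPEN were called as well. MAML1 was at 66.7 and 70.0 CPM in vehicle libraries 2 and 3 and at 56.2, 59.6 and 62.3 CPM under Tg. SPEN was at 511 and 446 CPM in those vehicle libraries and at 357, 369 and 397 CPM under Tg. Of 12 genes listed under turnover and endocytosis, 4 were called, all higher: CHAC1, the ubiquitin ligase genes ITCH (0.52) and DTX3 (0.50), and MIB1 (0.54, edgeR adjusted p = 0.0464). CHAC1 was placed in this group, although its action on Notch named above is on furin cleavage. MIB1 was at 0.20 (adjusted p = 0.365) without vehicle library 1 and was not called in 25 of the 33 fits. ITCH was at 0.34 without vehicle library 1 and was still called (adjusted p = 0.000896). In the group of HES/HEY relatives and their corepressors, TLE1, TLE3 and TLE4, which encode Groucho corepressors, were called lower by 0.48, 0.61 and 0.37 on the log2 scale, as was BHLHE40 (-0.22). HELT was called higher at a low level, from 0.49 to 1.22 CPM (1.31), and its call was lost without vehicle library 1 (adjusted p = 0.0552).

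**Figure D3:**
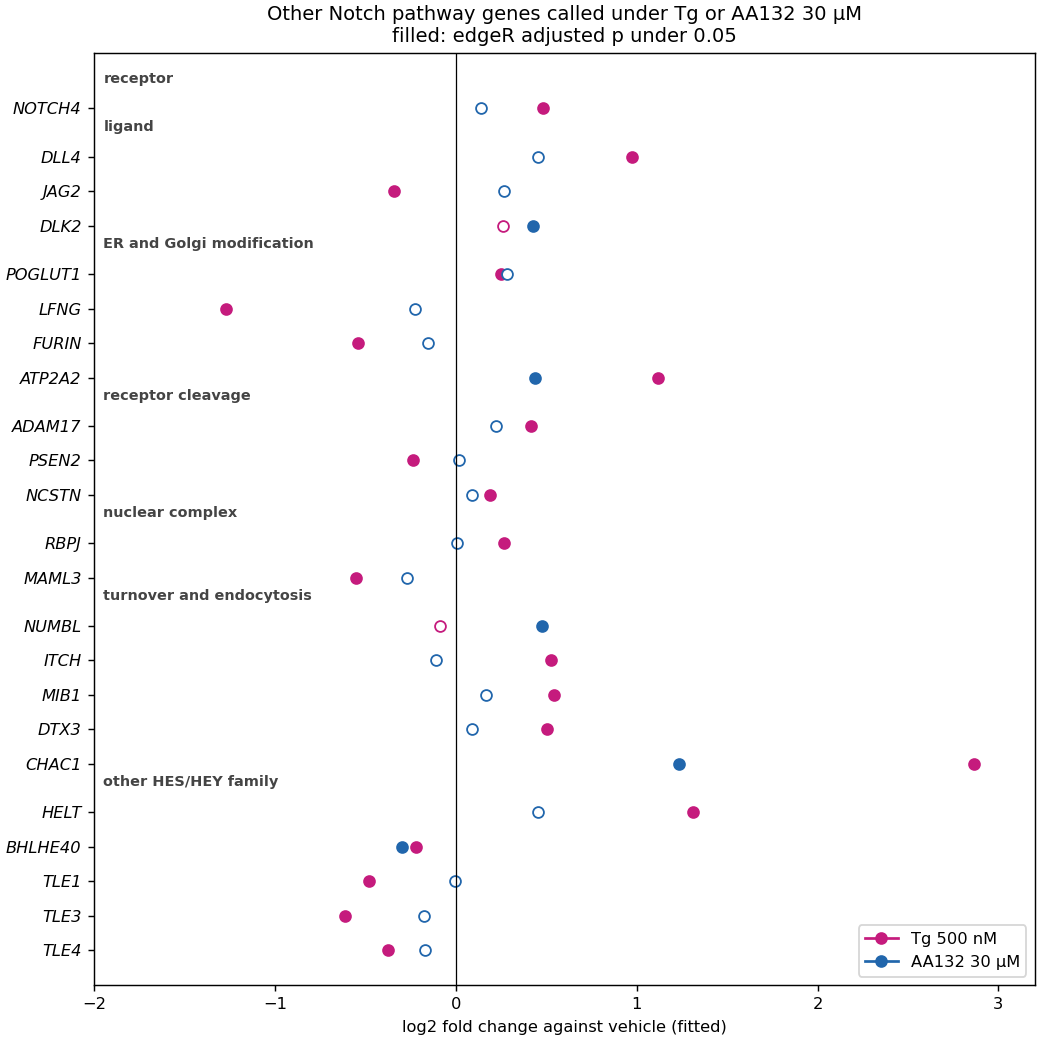
Fitted log2 fold change against vehicle of the pathway genes called under Tg (pink) or 30 µM AA132 (blue), grouped by role. Filled circles passed the test; CHAC1 lies furthest to the right at 2.87 under Tg and 1.23 under AA132.

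The AA132 doses were each compared with vehicle, and a slope on log10 dose was fitted over the 24 AA132 libraries alone, which uses no vehicle library. NOTCH1 rose with dose. It was at 32.1 ± 5.48 CPM at 0.1 µM, 34.6 ± 0.43 at 0.3 µM, 36.4 ± 5.17 at 1 µM, 39.1 ± 4.76 at 3 µM, 43.2 ± 1.01 at 6 µM, 39.3 ± 5.20 at 10 µM, 45.7 ± 1.38 at 15 µM and 46.0 ± 6.17 CPM at 30 µM (SD, n = 3). The mean at 10 µM was below that at 6 µM, within the spread of the 10 µM libraries (33.4, 43.3 and 41.2 CPM). NOTCH1 was at 42.3, 32.7 and 34.1 CPM at 1 µM and at 44.6, 37.0 and 35.8 CPM at 3 µM, so it too was high in 1 µM library 1 and lowest in library 3 at 3 µM. The slope was 0.21 log2 units per 10-fold dose (SE 0.034, edgeR adjusted p = 3.18e-05) and was called in all 32 alternative fits of the slope. It was 0.22 (adjusted p = 1.76e-05) without 1 µM library 1 and 3 µM library 3.

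Against vehicle, NOTCH1 was called at 6 µM (log2 fold change 0.53, edgeR adjusted p = 0.00908), 15 µM (0.61, adjusted p = 0.00103) and 30 µM (0.62, SE 0.11, adjusted p = 0.000539). At 10 µM the value was 0.39 (adjusted p = 0.0726), and it was 0.49 and called (adjusted p = 0.0199) without 10 µM library 1. It was also called without 0.1 µM library 2 (adjusted p = 0.0452), with no filter (0.0046) and by DESeq2. At 30 µM the libraries were at 51.5, 47.2 and 39.4 CPM, all above the vehicle libraries, and the increase was 53.7%. Without vehicle library 1 the values at 6, 15 and 30 µM were 0.48, 0.56 and 0.57 (adjusted p = 0.0223, 0.0050 and 0.00173). The 6 µM call was lost without 6 µM library 1 (0.52, adjusted p = 0.0522). With only the groups compared in the fit, the 6 and 30 µM calls were lost (edgeR adjusted p = 0.0923 and 0.0804) and the 15 µM call was kept. Among all genes tested, the called share at 6, 15 and 30 µM was 1.07%, 2.76% and 7.05%. Of the 9 members, NOTCH1 was the single call at 6 and at 15 µM, and NOTCH1 and HES1 were the calls at 30 µM.

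HES1 moved the other way. Its means were 34.9, 34.0, 33.3 and 33.9 CPM at 0.1, 0.3, 1 and 3 µM, and 29.7, 30.0, 30.4 and 27.2 CPM at 6, 10, 15 and 30 µM. The slope was -0.13 log2 units per 10-fold dose (SE 0.025, edgeR adjusted p = 0.000493) and was called in all 32 alternative fits. At 30 µM the libraries were at 29.04, 25.6 and 27.1 CPM, below all vehicle libraries (log2 fold change -0.36, SE 0.088, adjusted p = 0.00999). This call against vehicle was lost without vehicle library 1 (-0.23, adjusted p = 0.0718) and without 30 µM library 2 (-0.32, adjusted p = 0.0688). It was also lost with only the groups compared in the fit (edgeR adjusted p = 0.308).

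Of the 9 genes, 5 had a called slope, against 18.7% of the 17554 genes tested. NOTCH2 and JAG1 fell, with slopes of -0.086 (edgeR adjusted p = 0.0117) and -0.10 (adjusted p = 0.0149). The NOTCH2 slope was not called with doses of 1 µM and above (-0.13, adjusted p = 0.0744). In 30 µM library 3 NOTCH2 was at 152 CPM against 199 and 207 CPM in the other 30 µM libraries. Without that library and 0.1 µM library 2 the NOTCH2 and JAG1 slopes were still called (-0.086 and -0.095). JAG1 was highest at 1 µM (75.7 ± 7.13 CPM) and lowest at 30 µM (58.4 ± 6.57 CPM), and its slope was lost without the 30 µM dose (-0.060, adjusted p = 0.198). HES6 rose (0.12, adjusted p = 0.0331), a call lost without any 1 of 6 AA132 libraries: 0.1 µM library 2, the 3 libraries of 0.3 µM, and 30 µM libraries 1 and 2. Dropping the 30 µM dose also removed the call (adjusted p = 0.147). NOTCH3, which fell under Tg, was at 19.2 to 25.6 CPM in all 24 AA132 libraries, with a slope of 0.016 (95% interval -0.043 to 0.076). NRARP, HES4 and HEY1 had no called slope (adjusted p = 0.600, 0.796 and 0.319).

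**Figure D4:**
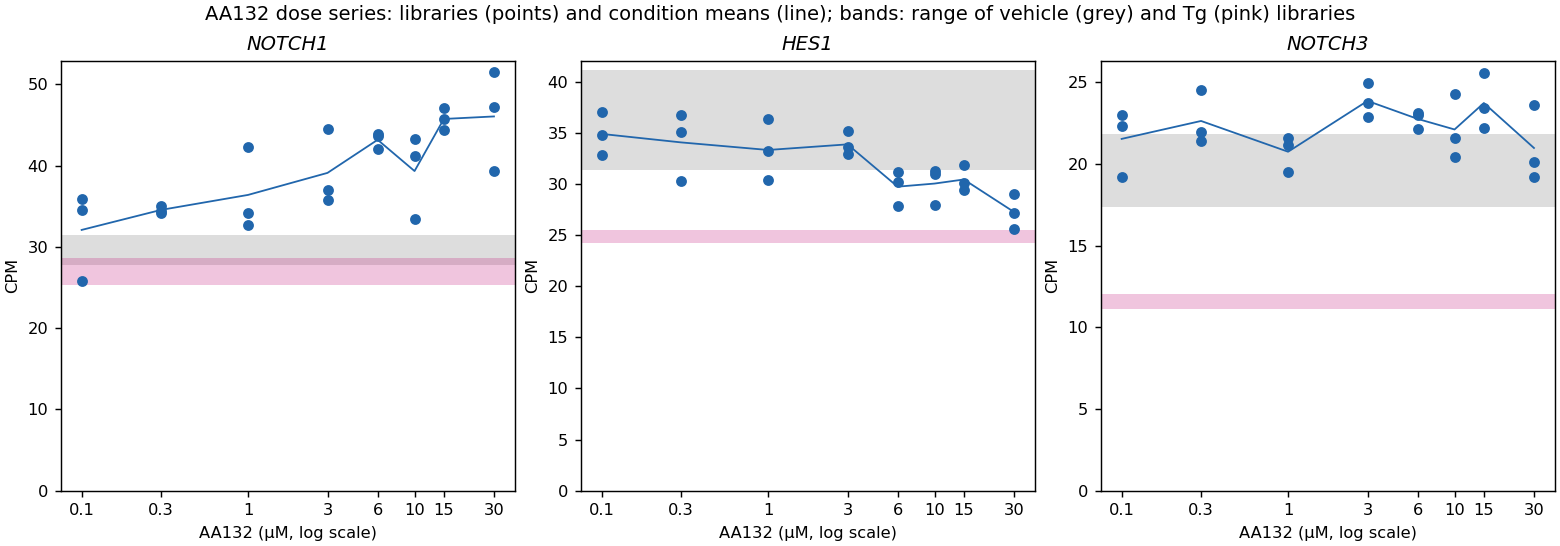
CPM of NOTCH1, HES1 and NOTCH3 against AA132 concentration (log axis), with 3 libraries a dose and a line through the means. Grey and pink bands span the vehicle and Tg libraries; NOTCH1 climbs from 32.1 to 46.0 CPM, HES1 declines from 34.9 to 27.2 CPM, and NOTCH3 stays above the Tg band at every dose.

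At 0.1, 0.3, 1 and 3 µM AA132, edgeR called 0 of the 9 genes. At an unadjusted p under 0.05 there were 0, 3, 2 and 3, and DESeq2 also called 0 at each of these doses. Over all 17793 genes tested, edgeR gave 796, 981, 1057 and 1635 at that unadjusted threshold. Among all genes tested, 0% were called at each of the lowest 3 doses and 0.118% at 3 µM. At 10 µM edgeR called 0 members, 2 had an unadjusted p under 0.05, and DESeq2 called NOTCH1 (0.40, adjusted p = 0.0289), with 1.41% of all genes called by edgeR. At this dose 2292 of the 17793 genes tested had an unadjusted p under 0.05. Of the 51 pathway genes, 5 were called at 30 µM, against 7.05% of all genes tested. With only the groups compared in the fit, CHAC1 was the single call. Without vehicle library 1 the calls were the same 5 and APH1A, DTX2, ITCH, JAG2, PSENEN and TLE4 (8 higher and 3 lower). CHAC1 reached 12.7 ± 0.70 CPM (1.23, edgeR adjusted p = 1.52e-06). ATP2A2 (0.44), the Numb relative NUMBL (0.47) and the Delta-like gene DLK2 (0.43) were also higher, and BHLHE40 was lower (-0.30). The NUMBL call was lost without vehicle library 2 (adjusted p = 0.0583) or 30 µM library 1 (0.0765), and the DLK2 call without vehicle library 2 or 3 or 30 µM library 1 or 3 (adjusted p from 0.0777 to 0.139).

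AA147 at 10 µM gave no called member by edgeR, 2 with an unadjusted p under 0.05 (NOTCH3 and JAG1, both higher) and 0 by DESeq2, against 0.0225% of all genes called. NOTCH1 was at 31.8, 35.9 and 36.7 CPM, NOTCH3 at 26.3, 21.2 and 21.4 CPM, and HES1 at 32.8, 32.3 and 33.5 CPM. Their log2 fold changes against vehicle were 0.22, 0.22 and -0.090, with 95% intervals of -0.013 to 0.45, 0.025 to 0.42 and -0.27 to 0.089. Without vehicle library 1 they were 0.17, 0.14 and 0.045, and none was called. The JAG1 value was 0.17 with all libraries, and between 0.073 and 0.24 in the fits that left out 1 library. None of the 51 pathway genes was called by edgeR or DESeq2, and 3 had an unadjusted p under 0.05. Over all 17793 genes tested, 1211 had an unadjusted p under 0.05 for AA147.

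The compounds AA132 and AA147 were compared at the shared dose of 10 µM, 1 pair of compounds over 9 genes, with p-values adjusted over all genes tested. No member was called by edgeR or DESeq2, 0 had an unadjusted p under 0.05 by edgeR, and 0.0674% of all genes were called. Over all 17793 genes tested, 1425 had an unadjusted p under 0.05. The difference, AA132 minus AA147, was 0.18 for NOTCH1 (95% interval -0.053 to 0.40, and 0.27 without 10 µM AA132 library 1, adjusted p = 0.383), -0.13 for HES1 (-0.31 to 0.050) and -0.056 for NOTCH3 (-0.25 to 0.14). It was 0.22 for HES6 (-0.10 to 0.54), -0.19 for NOTCH2 (-0.44 to 0.058) and -0.16 for JAG1 (-0.32 to 0.0060). The intervals for HES4 (-0.20 to 0.32), HEY1 (-0.35 to 0.11) and NRARP (-0.44 to 0.43) also span 0. They do not show that the compounds act alike.

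Tg and 30 µM AA132 were tested directly against each other, since they share the vehicle libraries. Of the 9 genes, 3 were called, against 29.8% of all genes tested. NOTCH1 was lower under Tg by 0.75 on the log2 scale (SE 0.11, edgeR adjusted p = 3.24e-06) and NOTCH3 by 0.86 (SE 0.10, adjusted p = 3.42e-08). The libraries of the treatments did not overlap for either gene, nor for JAG1, NRARP and HES1. How many of all genes tested do not overlap was not counted. JAG1 was higher under Tg by 0.24 (adjusted p = 0.0204), a call lost without Tg library 3 (adjusted p = 0.0801) or 30 µM library 3 (0.15, adjusted p = 0.207). NRARP was lower by 0.54 without passing the test (adjusted p = 0.0596), and was called without vehicle library 1 (adjusted p = 0.0248) or 2 (0.0194). For HES1, lower than vehicle under both treatments, the difference was -0.14 (95% interval -0.32 to 0.040, adjusted p = 0.246).

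**Figure D5:**
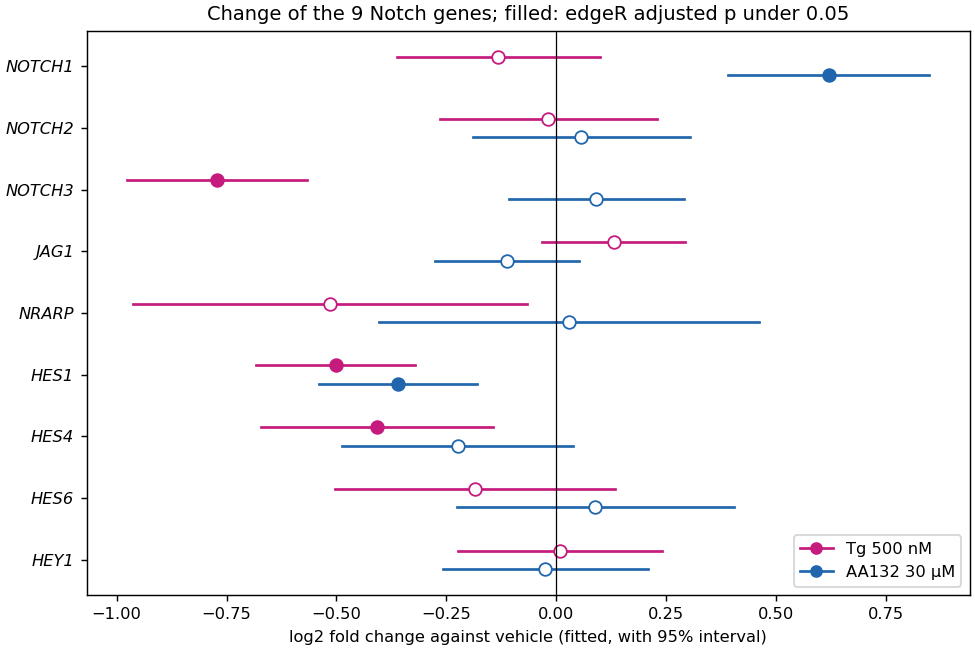
Fitted log2 fold change against vehicle with 95% intervals for Tg (pink) and 30 µM AA132 (blue), which share the vehicle libraries. Filled circles passed the test: NOTCH3, HES1 and HES4 (not called without vehicle library 1) lie left of 0 under Tg, NOTCH1 lies right of 0 and HES1 left of 0 under AA132.

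For the 3 members called under Tg, the genes with the most similar pattern were found by Pearson correlation of mean log2 CPM over the 11 conditions, among 11236 other genes with at least 5 CPM. The means come from the same libraries, so the correlations are a description. NOTCH3 was most like LPCAT1 (r = 0.99) and FAM122B (0.98), and HES1 was most like RBMX (0.98) and GPR39 (0.97). HES4 was most like NR2F6 (0.95) and CENPV (0.95). Against vehicle, the log2 fold changes of these 6 genes under Tg were between -0.29 and -0.51. They were picked for matching members with their lowest mean under Tg, so these falls follow from the choice and add no support.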

How the data were processed

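The table deposited by the authors holds expected counts (estimated total reads per gene on a linear scale, per the file headers), not scaled between libraries. Libraries were made by a service provider and sequenced on a DNBSEQ platform, per the labels. GRCh38.p7 is the build listed in the submitters' processing notes; the aligner, counter, annotation and use of strand are not given in the sources used here. The value 0.009, which fills 43.5% of cells, was set to 0, 98 rows sharing a name were summed by name, and counts were rounded. All values of the 9 members were whole.

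All 33 libraries entered 1 edgeR 4.0.16 quasi-likelihood fit (R 4.3.3, TMM scaling, filter on low counts, no replicate block), with Benjamini-Hochberg adjustment over all genes tested. The slope used the 24 AA132 libraries. CPM use library sizes scaled by TMM, and log2 CPM add a prior count of 2. Intervals are 95% intervals of the fitted value. Alternatives were RLE size factors, DESeq2 1.42.0, no filter, only the groups compared, a replicate block, 2 narrower dose ranges for the slope and leaving out each library or, added after seeing the data, 2 pairs of AA132 libraries. The fits were tested on simulated data. For Tg against vehicle, 48.5%, 82.5% and 95% of simulated 1.3-, 1.5- and 2-fold changes were called, and 4.64% of calls were false. The simulated counts held no deviation shared across a library, such as that of vehicle library 1, so they do not test its effect.

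The members, lists and tests were chosen with earlier results of these data known. Named are the 9 members, pathway genes called with an absolute log2 fold change of at least 0.5 (at most 12 a comparison), and for each member called under Tg the 2 genes with the most similar pattern. Other pathway genes and the RBPJ motifs were named after their values were seen. Some genes of the pathway list are not reported here and enter no count of it.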

Additional observations from a re-analysis of the deposited data

Results flagged for a closer look

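The effects of Tg and of 30 µM AA132 on 3 of the 9 genes differed by a direct test between the treatments (edgeR adjusted p under 0.05, 3 libraries each). Over all genes tested 29.8% were called in this comparison. The difference, Tg minus AA132 on the log2 scale, was -0.75 for NOTCH1, -0.86 for NOTCH3 and 0.24 for JAG1. The JAG1 call was lost without Tg library 3 or 30 µM library 3. NOTCH1 and NOTCH3 encode receptors and differed in which treatment moved them from vehicle: NOTCH3 under Tg (-0.77) and NOTCH1 under AA132 (0.62). The Tg and AA132 libraries of both genes did not overlap, nor did those of JAG1, NRARP and HES1. The share of all genes tested that do not overlap was not counted.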

How the results depend on the processing

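The count of called members is the number out of 9. Under Tg it was 3, and 2 to 4 when 1 library was left out. At 30 µM AA132 it was 2, 1 to 3 when 1 library was left out and 0 with only the groups compared in the fit. At 6 µM it was 1, 0 to 1 when 1 library was left out and 0 with only the groups compared. At 10 µM it was 0, 0 to 1 when 1 library was left out, and 1 (NOTCH1) with no filter or with DESeq2. At 3 µM it was 0, and 1 (NOTCH1) with no filter. For the slope it was 5, 3 without the 30 µM dose, 3 with doses of 1 µM and above, and 4 to 5 when 1 library was left out. For Tg against 30 µM AA132 it was 3, and 2 to 4 when 1 library was left out. The counts at 0.1, 0.3, 1 and 15 µM, for AA147 and for AA132 against AA147 were the same in every alternative run. Of 4437 alternative values of single members, 23 lost a call, 11 gained one, and none changed sign while called; 122 uncalled values changed sign. Fits without 1 µM library 1 and 3 µM library 3, or without 0.1 µM library 2 and 30 µM library 3, chosen after seeing the data, gave 5 and 4 called slopes. A replicate block changed no count of members. Of 55 pairs sharing each column number, 18, 13 and 15 for numbers 1, 2 and 3 had deviations correlated above 0.1. The median correlations were 0.034, 0.0070 and 0.012 and the highest 0.51, 0.36 and 0.39. Pairs with different numbers were not examined, so these values cannot show whether column numbers pair the libraries. The count of all genes called fell from 5551 to 3073 under Tg and from 1255 to 74 at 30 µM with only the groups compared. In such fits it fell from 491 to 46 at 15 µM, from 250 to 8 at 10 µM, from 190 to 25 at 6 µM, from 21 to 0 at 3 µM (with 0 for AA147, main count 4, and for AA132 against AA147, main count 12). For Tg against 30 µM AA132 it rose from 5305 to 6238. Why these counts moved was not tested. DESeq2 gave 807, 492, 344 and 71 at 15, 10, 6 and 3 µM, 30 for AA147 and 67 for AA132 against AA147. NRARP, at 1.36 to 3.46 CPM, had the lowest counts of the members.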

Other observations

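Along the AA132 doses, 15 of the 51 tested pathway genes had a called slope, against 18.7% of all genes, 8 rising and 7 falling. Of 7 genes of receptor cleavage, the gamma-secretase genes PSEN2 (0.053 log2 units per 10-fold dose) and PSENEN (0.078) rose and none fell. The PSEN2 and PSENEN slopes were each lost without any 1 of 4 AA132 libraries, 30 µM libraries 2 and 3 in both cases, and without the 30 µM dose. Of 8 genes of the nuclear complex, MAML1 (-0.082), MAML3 (-0.18) and SPEN (-0.12) fell and none rose; MAML and SPEN encode the coactivator and a corepressor of the RBPJ complex. The MAML3 slope was not called without the 30 µM dose. HEY2, the closest relative of HEY1 in the list, fell (-0.11, edgeR adjusted p = 0.00596), as did BHLHE40 (-0.15), TLE3 (-0.15) and TLE4 (-0.11). NUMBL (0.20), JAG2 (0.14), DLK2 (0.19), POGLUT1 (0.14), ATP2A2 (0.14) and CHAC1 (0.32) rose. The DLK2 slope was not called without the 30 µM dose, and those of MAML3, HEY2, NUMBL and PSEN2 were not called with doses of 1 µM and above.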
